A study of Homo sapiens with 12 samples.

Results

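Aminoacyl-tRNA synthetases are the enzymes that attach each amino acid to its transfer RNA. The 35 genes described here encode 19 cytosolic enzymes or subunits and 16 mitochondrial enzymes. They were found by symbol among the 57500 genes listed in a count matrix of OE33 cells, with names ending in 2 taken as mitochondrial. All 35 were present, and all 35 were among the 15805 genes with enough counts to be tested.

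OE33 is an epithelial cell line from an esophageal adenocarcinoma, and polyadenylated RNA was sequenced from 4 groups of 3 libraries. shAPE1 cells were survivors of repeated acidified bile salts (200 µM, pH 5.5, 20 minutes a day for 15 days) that were then stably transduced with a short hairpin RNA against APE1. shCtrl cells were the same survivors carrying a non-targeting hairpin. rABS cells were the survivors without a hairpin, and Parental cells were untreated OE33. The study text describes independent biological replicates. No group was mock-treated, so exposure and the culture of those days cannot be told apart. The labels name 1 APE1 hairpin, so its effects through APE1 and on other transcripts cannot be told apart either.

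The cytosolic synthetases charge the transfer RNAs used by cytoplasmic ribosomes. Several of them sit in a multi-synthetase complex held together by the scaffold proteins AIMP1, AIMP2 and EEF1E1. The mitochondrial enzymes are encoded in the nucleus, imported, and charge the transfer RNAs that serve the few proteins made inside mitochondria. When amino acids run short or the endoplasmic reticulum is stressed, phosphorylation of the initiation factor eIF2alpha raises translation of the transcription factor ATF4. Many cytosolic synthetase genes are known targets of ATF4, whereas most mitochondrial ones are not.

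ATF4 and its C/EBP partners bind a composite element with the letters TGATGNAAN, in which N is any base. This element was searched on both strands in the RefSeq promoter windows (GRCh38.p14, 250 bases before to 50 after the start site), which were available for 30 of the 35 genes. AARS2, LARS1, VARS1, VARS2 and YARS1 had no entry. The element was found in 8 synthetase promoters, 7 of them cytosolic. The matches are shown because all 7 of these cytosolic genes were lower in rABS than in Parental cells, as described further on. Each sequence is written 5′ to 3′ on the strand of its gene, with the matched element in capitals.
AARS1 (chr16:70289661-70289719, minus strand): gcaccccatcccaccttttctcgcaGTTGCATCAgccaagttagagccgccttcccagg
CARS1 (chr11:3057408-3057436, minus strand): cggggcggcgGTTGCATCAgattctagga
GARS1 (chr7:30594819-30594877, plus strand): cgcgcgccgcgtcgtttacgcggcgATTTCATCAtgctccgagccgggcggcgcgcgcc
IARS1 (chr9:92293698-92293736, minus strand): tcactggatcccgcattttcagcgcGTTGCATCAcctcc
MARS1 (chr12:57488053-57488081, plus strand): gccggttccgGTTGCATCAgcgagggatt
NARS1 (chr18:57621804-57621832, minus strand): ctacgctctcTGATGCAACgccggaatcg
TARS1 (chr5:33440956-33440984, plus strand): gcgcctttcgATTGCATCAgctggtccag
YARS2 (chr12:32756061-32756119, minus strand): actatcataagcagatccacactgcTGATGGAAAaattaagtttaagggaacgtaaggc
In 6 of the 7 cytosolic promoters the element lay on the strand opposite the gene, and in NARS1 it lay on the gene's own strand. In CARS1, IARS1, MARS1, NARS1 and TARS1 it began within 15 bases of the start site, while in AARS1 and YARS2 it began 188 and 197 bases before it. The stricter form TGATGCAA was present in all of these except GARS1 and YARS2.

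Library totals ran from 15736087 to 23010377 counts, replicates of a group correlated at 0.987 to 0.991 in log2 CPM (counts per 1000000 counts of the scaled library), and the synthetases had 49 to 13339 counts per library. APEX1, the gene targeted by the hairpin, had 4.42, 4.50 and 5.88 CPM in the shAPE1 libraries, against 62.0, 56.5 and 60.9 in the shCtrl libraries, 8.21% of the shCtrl level (edgeR quasi-likelihood test, Benjamini-Hochberg adjusted p = 3.75e-22). The exact permutation test over the 20 arrangements of these libraries gave p = 0.1, the smallest it can give. Epithelial markers (EPCAM, CDH1, KRT8, KRT18 and KRT19) summed to 9160 to 14500 CPM in every library, whereas fibroblast markers reached at most 27 CPM, immune markers 6.93 CPM and endothelial markers 0.826 CPM. In bulk RNA, fewer expressing cells and less RNA per cell cannot be told apart.

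The first comparison asked how the survivors of repeated exposure differed from untreated cells. Of the 19 cytosolic genes, 13 were lower in rABS than in Parental cells, 5 were higher and 1 did not pass the test. Of the 16 mitochondrial genes, 3 were lower, 8 were higher and 5 did not pass. Genes were called at an adjusted p under 0.05. Over all genes tested, 29.9% were called lower and 29.9% higher, so the cytosolic share that was lower (68.4%) and the mitochondrial share that was higher (8 of 16) both lay above the background. The median log2 fold change was -0.73 for the cytosolic genes and 0.37 for the mitochondrial ones, against -0.0074 over all genes tested. The mitochondrial median depended on single Parental libraries, from 0.24 without replicate 2 to 0.46 without replicate 3. At least 2-fold falls were seen in 9 of 19 cytosolic and 0 of 16 mitochondrial genes, against 9.31% of all genes. At least 2-fold rises were seen in 1 cytosolic and 3 mitochondrial genes, against 10.1% of all genes.

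**Figure D1:**
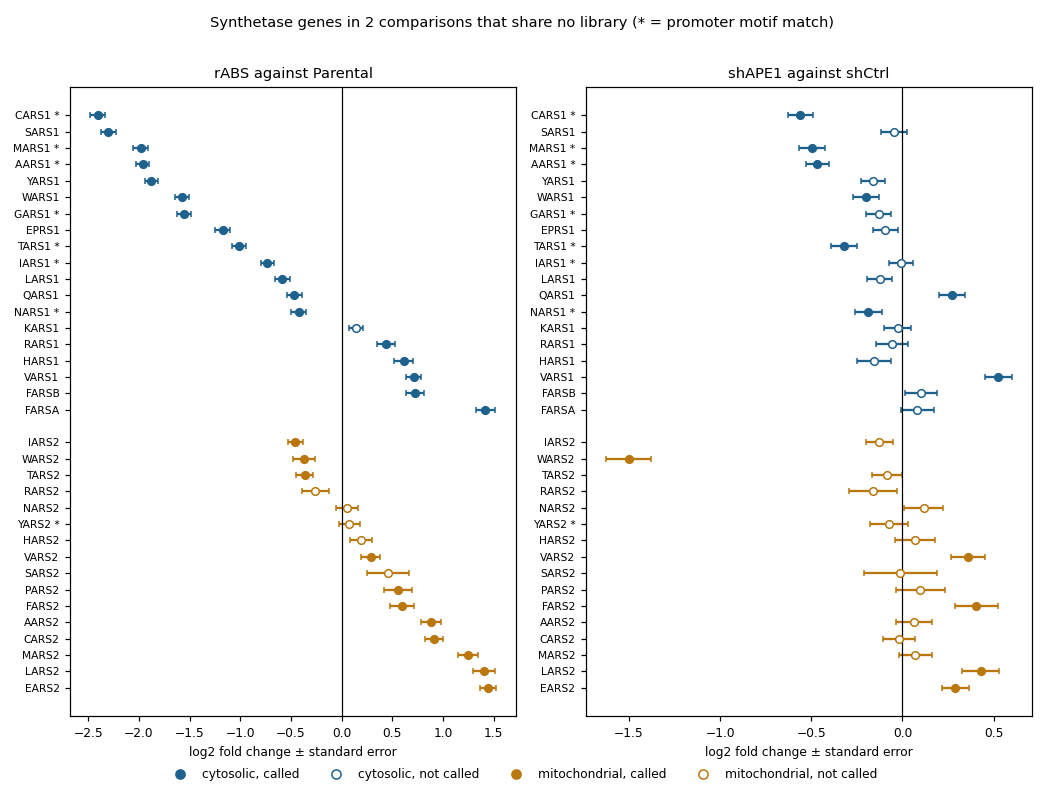
Log2 fold changes with standard errors for the 35 synthetase genes in rABS against Parental cells (left) and in shAPE1 against shCtrl cells (right), with cytosolic genes above and mitochondrial genes below; filled points passed an adjusted p of 0.05 and asterisks mark the promoter element TGATGNAAN. On the left, 13 cytosolic genes lie below 0 and 8 mitochondrial genes above it among those called, and on the right WARS2 stands apart at -1.50.

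The largest fall was in CARS1, which encodes the cysteinyl-tRNA synthetase (chr11:3000922-3057613, GRCh38). It had 45.8, 45.6 and 47.4 CPM in the rABS libraries, against 247, 239 and 250.7 CPM in the Parental libraries. The groups were far apart, and CARS1 was 5.31-fold lower in rABS (log2 -2.41 ± 0.07, standard error, adjusted p = 1.36e-23). SARS1, the seryl enzyme gene (chr1:109213918-109238169), had 77.3, 83.9 and 79.7 CPM in rABS, against 389, 387 and 414.5 CPM in Parental. Every rABS library was under 84 CPM, and the fall was 4.94-fold (log2 -2.31 ± 0.07, adjusted p = 2.1e-22). AARS1, which charges the alanine transfer RNA (chr16:70252295-70289543), had 127, 128 and 126 CPM in rABS, against 495, 485 and 508 CPM in Parental. It was 3.90-fold lower, with the rABS libraries close together (log2 -1.96 ± 0.06, adjusted p = 2.84e-22).

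MARS1, the methionyl enzyme gene (chr12:57475445-57517569) and a member of the multi-synthetase complex, had 87.8, 95.8 and 83.7 CPM in rABS, against 349, 329 and 379.5 CPM in Parental. It was 3.96-fold lower (log2 -1.98 ± 0.07, adjusted p = 3.4e-21). Of its exon bases, 13.3% were shared, mainly with ARHGAP9 and with DDIT3 on the opposite strand. DDIT3, a stress-induced transcription factor gene, had 3.80 ± 0.25 CPM in rABS and 41.4 ± 3.91 CPM in Parental (SD, n = 3 each). Whether reads were assigned by strand is not given in the sources used here, and the part of the shared bases in the MARS1 result was not tested. YARS1, the tyrosyl enzyme gene, fell 3.67-fold, with 66.5, 67.5 and 68.4 CPM in rABS and 247.5, 245 and 250.5 CPM in Parental. GARS1, whose product charges glycine in both the cytosol and mitochondria from a common gene, had 138, 139 and 148 CPM in rABS, against 379.6, 448 and 419.5 CPM in Parental. It fell 2.94-fold, with no overlap of the groups.

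WARS1 encodes the cytosolic tryptophanyl enzyme, a gene also known to be induced by interferon. Its level was 109, 109 and 103 CPM in rABS, against 307, 330.0 and 322 CPM in Parental. The groups did not overlap, and the fall was 2.98-fold (log2 -1.58 ± 0.07, adjusted p = 9.36e-19). EPRS1, the bifunctional enzyme for glutamate and proline that belongs to the complex, had 184, 172 and 174 CPM in rABS, against 391.6, 402 and 403 CPM in Parental. All rABS libraries were at less than 185 CPM, and EPRS1 fell 2.26-fold. The smaller falls, in descending order, were in TARS1 (threonine, 2.01-fold), IARS1 (isoleucine, 1.66-fold), LARS1 (leucine, 1.499-fold), QARS1 (glutamine, 1.38-fold) and NARS1 (asparagine, 1.34-fold). QARS1 illustrates this end of the range, with 163, 162 and 158 CPM in rABS and 223, 214 and 229.9 CPM in Parental (adjusted p = 7.01e-07).

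A minority of cytosolic genes went the other way. FARSA, which encodes the catalytic subunit of the phenylalanyl enzyme, had 94.0, 107 and 83.8 CPM in rABS, against 38.2, 31.5 and 36.9 CPM in Parental. It rose 2.68-fold, and the lowest rABS library was above the highest Parental one (log2 1.42 ± 0.09, adjusted p = 1.33e-14). FARSB, which encodes the other subunit of the same enzyme, rose 1.66-fold. VARS1, the valyl enzyme that associates with the elongation factor eEF1, rose 1.64-fold, HARS1 (histidine) 1.53-fold and RARS1 (arginine) 1.35-fold. KARS1, which like GARS1 supplies lysyl enzyme to both compartments, had 214, 232 and 236 CPM in rABS and 199.6, 200.0 and 218.5 CPM in Parental. Its groups overlapped and it did not pass the test (log2 0.14 ± 0.07, adjusted p = 0.0938), although it did without Parental replicate 3 (adjusted p = 0.0497).

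**Figure D2:**
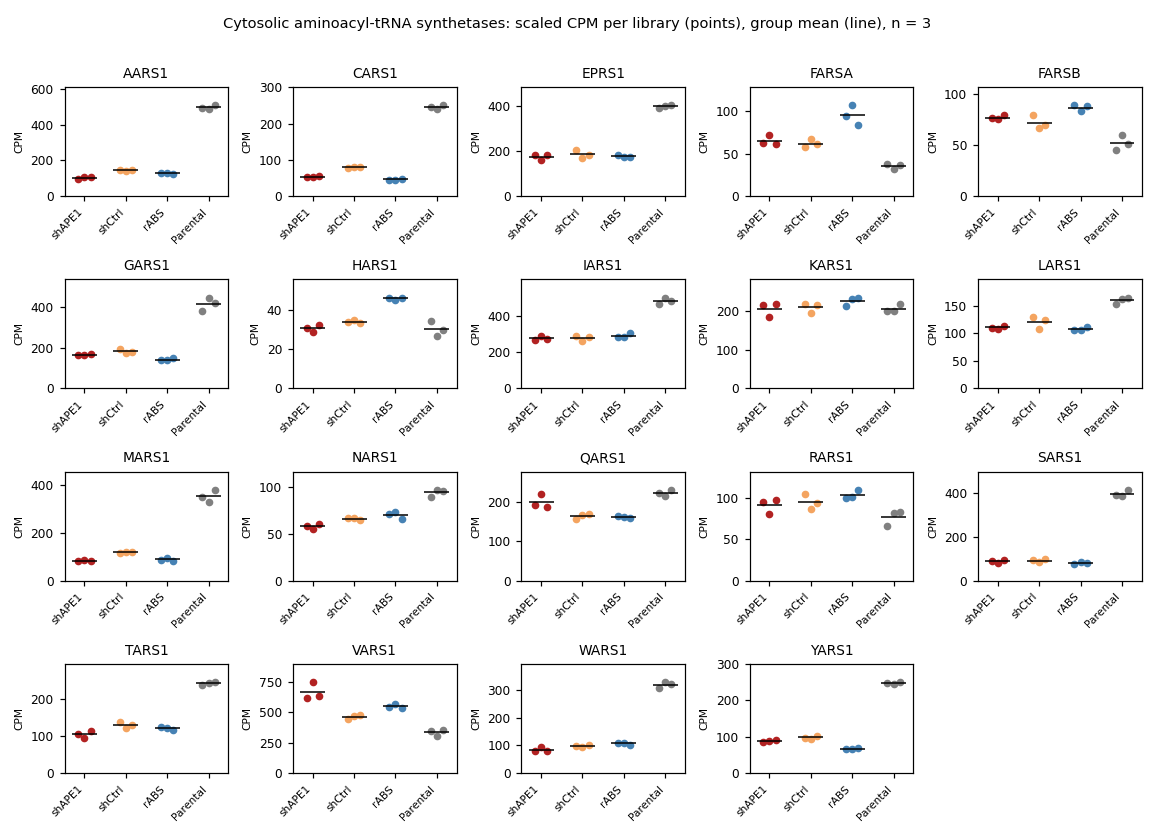
CPM in each library for the 19 cytosolic synthetase genes, with a line at the mean of the 3 libraries of a group and a separate linear scale from 0 for each gene. In AARS1, CARS1, MARS1, SARS1, WARS1 and YARS1 the Parental libraries lie well above those of the other 3 groups, whereas in FARSA and VARS1 they lie below them.

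Genes that fell were found both inside and outside the multi-synthetase complex. Among the 7 members of the complex measured here (EPRS1, IARS1, KARS1, LARS1, MARS1, QARS1 and RARS1), 5 fell, 1 rose and 1 did not pass, with a median log2 fold change of -0.58. Among the 12 cytosolic genes outside it, 8 fell and 4 rose, with a median of -1.28. The synthetases also divide into classes I and II by the fold of the catalytic domain. Of the class I cytosolic genes 7 of 9 fell, and of the class II genes 5 of 9, with EPRS1 holding a domain of each class. For scale, 68.4% of all cytosolic synthetases and 29.9% of all genes tested were called lower. The differences between subgroups were not tested.

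Among the mitochondrial enzymes, EARS2, which charges both glutamate and, in a first step, glutamine transfer RNA (chr16:23522014-23557731), had 85.1, 88.8 and 89.1 CPM in rABS, against 30.2, 32.0 and 34.5 CPM in Parental. It rose 2.72-fold, with no overlap of the groups (log2 1.44 ± 0.08, adjusted p = 8.27e-17). LARS2, the leucyl enzyme gene, had 23.3, 25.4 and 23.1 CPM in rABS, against 8.65, 9.87 and 8.43 CPM in Parental, a 2.65-fold rise. MARS2, the methionyl enzyme gene, rose 2.37-fold, with 29.9, 28.9 and 30.6 CPM in rABS and 11.7, 13.2 and 12.7 CPM in Parental. These 3 genes were the mitochondrial members that rose at least 2-fold, and in each of them the Parental libraries formed a narrow low group.

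CARS2, the mitochondrial cysteinyl enzyme gene, rose 1.88-fold, with 47.5, 43.5 and 46.7 CPM in rABS and 26.6, 23.0 and 23.8 CPM in Parental. AARS2 rose 1.84-fold, to 36.8, 36.8 and 37.0 CPM in rABS, against 21.6, 19.0 and 19.5 CPM in Parental. CARS2 and AARS2 thus rose where their cytosolic partners CARS1 and AARS1 fell. FARS2, the phenylalanyl enzyme, rose 1.51-fold, with 17.5, 16.9 and 16.7 CPM in rABS and 9.69, 11.4 and 12.6 CPM in Parental. PARS2, the prolyl enzyme, rose 1.47-fold, with 11.0, 11.5 and 13.0 CPM in rABS and 9.13, 6.60 and 8.67 CPM in Parental. VARS2 rose 1.22-fold, and 22.0% of its exon bases were shared with GTF2H4 on the same strand, a part in its result that was not tested.

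The 3 mitochondrial genes that fell did so by less. IARS2, the isoleucyl enzyme gene, fell 1.37-fold, TARS2 (threonine) 1.29-fold and WARS2 (tryptophan) 1.29-fold. HARS2, NARS2, RARS2, SARS2 and YARS2 did not pass the test. SARS2 was the lowest of all 35 genes per length in every group, and its log2 fold change of 0.46 ± 0.21 had an adjusted p of 0.0541. It shared 57.0% of its exon bases, with MRPS12 on the opposite strand and AC011455.2 on the same strand. Depending on how shared reads were assigned, its count may include reads of these genes or lack reads of its own.

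**Figure D3:**
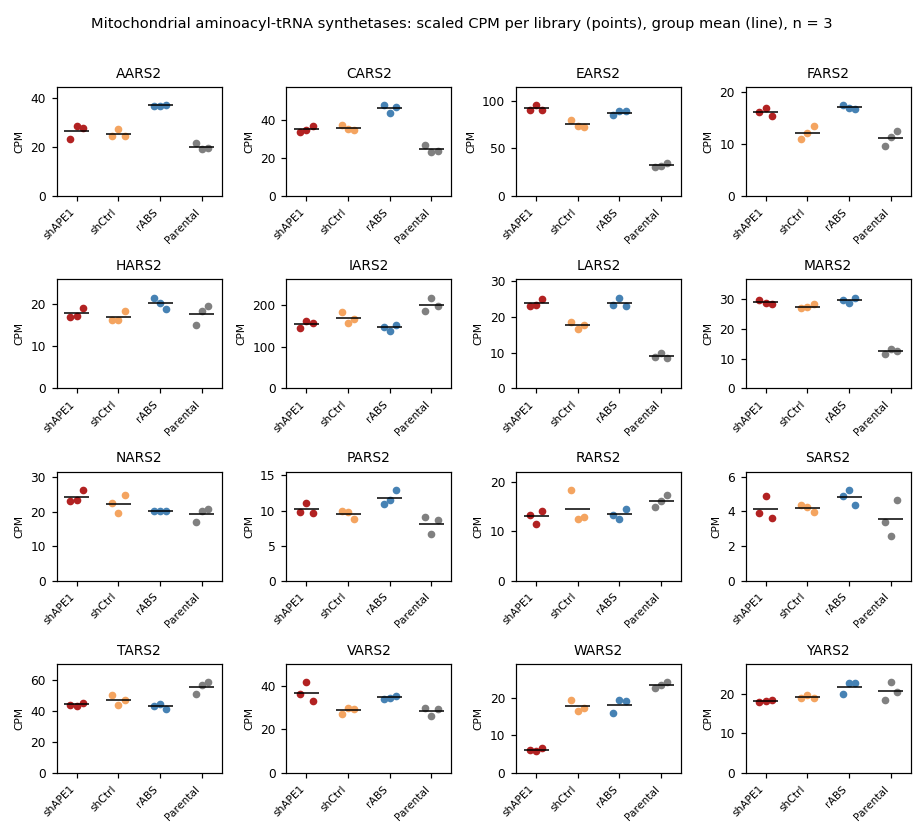
CPM in each library for the 16 mitochondrial synthetase genes, with a line at the mean of the 3 libraries of a group and a separate linear scale from 0 for each gene. EARS2, LARS2 and MARS2 are lowest in the Parental libraries, and WARS2 is lowest in the shAPE1 libraries.

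Summed over each class, the cytosolic genes held 2694 ± 29.1 CPM in rABS and 4811 ± 117.5 CPM in Parental (SD, n = 3 each). The mitochondrial genes held 575 ± 8.92 CPM in rABS and 502 ± 22.9 CPM in Parental. The ratio of the cytosolic to the mitochondrial sum was 4.67, 4.79 and 4.59 in the rABS libraries, against 9.89, 9.23 and 9.645 in the Parental libraries. In shAPE1 libraries this ratio was 5.02, 4.94 and 4.92, and in shCtrl libraries 4.83, 5.04 and 5.065. The Parental ratio was thus above that of all 9 libraries of survivors. These sums weight abundant genes most and are given as a description.

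The same contrast was taken gene by gene in 17 pairs, each a cytosolic gene with the mitochondrial gene for the same amino acid, with EPRS1 set against both EARS2 and PARS2, and both FARSA and FARSB against FARS2. The difference in log2 CPM, cytosolic minus mitochondrial, was lower in every rABS library than in any Parental library for 12 pairs, was higher for 3 and overlapped for 2. For scale, 31.6% of the single genes tested were lower in every rABS library than in any Parental library and 31.5% were higher, and no such share was computed for pairs of genes. The median change was -1.20 on the log2 scale. The largest was in CARS1 with CARS2, whose difference averaged 0.01 ± 0.06 in rABS and 3.33 ± 0.10 in Parental. MARS1 with MARS2 had 1.575 ± 0.14 in rABS and 4.802 ± 0.15 in Parental. The pairs that moved the other way were FARSA with FARS2, RARS1 with RARS2 and VARS1 with VARS2.

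**Figure D4:**
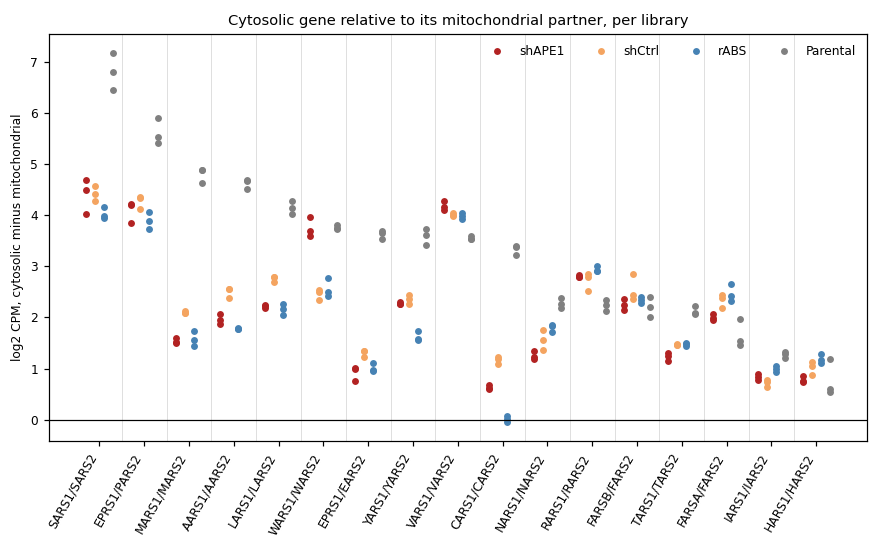
Difference in log2 CPM between each cytosolic synthetase gene and its mitochondrial partner, 1 point per library, for 17 pairs ordered along the horizontal axis. For SARS1, EPRS1, MARS1, AARS1, LARS1, YARS1 and CARS1 the Parental points lie far above those of shAPE1, shCtrl and rABS, whereas WARS1/WARS2 has shAPE1 points near the Parental ones.

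Levels can be compared between genes only per length, so CPM divided by exon length in kilobases (RPKM) were computed with GENCODE 29 exon lengths. The length of a gene was that of all its annotated exons, overlaps counted once. It can exceed the length of a single transcript, and the ranks depend on it. The cytosolic median was 25.7 RPKM in rABS and 47.2 RPKM in Parental, whereas the mitochondrial median was 5.34 RPKM in rABS. The order of the cytosolic genes differed between the groups. VARS1 led in rABS at 90.7 ± 2.84 RPKM, well above KARS1 at 55.9 ± 2.77 RPKM, which came next. In Parental cells AARS1 led at 110.2 ± 2.56 RPKM, followed by SARS1 at 103.5 ± 3.98 and GARS1 at 100.1 ± 8.24 RPKM, and SARS1 and GARS1 did not differ beyond their spread. CARS1 was the lowest cytosolic gene in rABS at 4.61 ± 0.10 RPKM, whereas HARS1 was lowest in Parental at 3.85 ± 0.48 RPKM. In CPM, CARS1 and HARS1 were alike in rABS (means 46.2 and 46.0), with exon lengths of 10037 and 7853 bases. Among mitochondrial genes IARS2 led in every group, at 35.0 ± 1.87 RPKM in rABS and 48.0 ± 3.79 RPKM in Parental, and SARS2 came last.

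The promoters shown above can be set beside these fold changes. All 7 cytosolic genes with the element TGATGNAAN in the window (AARS1, CARS1, GARS1, IARS1, MARS1, NARS1 and TARS1) fell in rABS, with a median log2 fold change of -1.55 and a range of -2.41 to -0.42. For comparison, 29.9% of all genes tested and 68.4% of the cytosolic synthetases were called lower. Of the 9 cytosolic genes with a window but no match, 4 fell, 4 rose and 1 did not pass, with a median of 0.14. EPRS1, QARS1, SARS1 and WARS1 were the 4 that fell without a match. YARS2, the mitochondrial gene with a match, did not pass the test (log2 0.08 ± 0.10). For scale, 3.61% of all 35116 RefSeq promoter windows held TGATGNAAN. Counted by gene instead, 2.72% of the 11047 tested genes with a window held it in any window. For TGATGCAA these shares were 0.866% and 0.733%. A match is a description of letters in a short window, and binding was not measured here. The share lower was not computed for all genes with the element, and a link between element and fall was not tested.

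Genes known to respond to ATF4, set beside the synthetases, were lower in the same comparison. Of 22 such genes tested, none of them encoding a transfer RNA synthetase, 20 fell, 1 rose and 1 did not pass, with a median log2 fold change of -2.07. ATF4 itself had 126.5, 119 and 126 CPM in rABS, against 696, 735 and 755 CPM in Parental, a 5.89-fold fall. ASNS, the asparagine synthetase gene, fell 30.3-fold, and ATF5 was the gene that rose, 1.95-fold. The median cytosolic synthetase thus changed by less than the median of these genes. Among 14 genes of the eIF2alpha kinases and of translation initiation, 6 rose, 5 fell and 3 did not pass, against 29.9% of all genes tested in each direction. EIF2B3, a subunit of the guanine nucleotide exchange factor eIF2B, rose 2.19-fold, and EIF2S2, the beta subunit of eIF2, fell 2.04-fold.

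The scaffold and delivery factors of the cytosolic system went in both directions. Of the 3 scaffold genes, AIMP2 rose 1.39-fold and EEF1E1 1.71-fold, while AIMP1 did not pass (log2 0.08 ± 0.10). Of 12 genes for cytosolic transfer RNA delivery and handling, 6 rose, 3 fell and 3 did not pass, against a background of 29.9% each way. The list also holds EEF1E1 and VBP1, both among the 6 that rose. VBP1 encodes a subunit of the chaperone prefoldin rather than a transfer RNA factor (log2 0.26, adjusted p = 0.0313). EEF1G, among the 3 that did not pass, had only 0.277 to 1.54 CPM per library, a count too low to be informative. How reads that map to several places were treated is not given, so this count need not reflect its expression. XPOT, which exports transfer RNA from the nucleus, fell 2.70-fold, with 125, 120.2 and 134 CPM in rABS and 315.5, 374 and 334.5 CPM in Parental. EEF1A1, the elongation factor that brings charged transfer RNA to the ribosome, fell 1.93-fold. DTD1, which removes D-amino acids from transfer RNA, fell 1.77-fold.

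Other parts of the mitochondrial translation system were counted in the same way, beside the background of 29.9% in each direction. Of 13 genes for amidation, formylation and elongation, 7 rose, 2 fell and 4 did not pass, with a median log2 fold change of 0.17. GATB, a subunit of the amidotransferase that completes the glutamine transfer RNA after EARS2, rose 1.71-fold. The other subunits of that enzyme, GATC and QRSL1, did not pass (log2 -0.13 and -0.03). The elongation factor GFM1 rose 1.85-fold. The initiation factors MTIF2 and MTIF3 were the 2 that fell, by 1.53- and 1.54-fold. Of 25 mitochondrial ribosomal protein genes, 16 rose, 2 fell and 7 did not pass, with a median log2 fold change of 0.45. These were genes named from MRPL1 to MRPL20 and from MRPS2 to MRPS15, a part of that family. MRPL17 rose 2.79-fold, whereas MRPS10 fell 2.71-fold.

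The second comparison asked how survivors carrying the control hairpin differed from survivors without one. Of the 19 cytosolic genes, 6 were higher in shCtrl than in rABS, 4 were lower and 9 did not pass. Of the 16 mitochondrial genes, 1 was higher, 6 were lower and 9 did not pass. The background was 17.9% higher and 18.6% lower over all genes tested. The medians were 0.03 for the cytosolic and -0.21 for the mitochondrial class, against 0.02 over all genes tested, and the cytosolic one was 0.000153 without shCtrl replicate 1. The 1 mitochondrial gene that was higher, IARS2 (log2 0.20 ± 0.07, adjusted p = 0.031), lost its call without rABS replicate 1 or 2 or without shCtrl replicate 1 or 3, which left 0.

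CARS1 had 79.0, 79.6 and 80.9 CPM in shCtrl, against 45.8, 45.6 and 47.4 CPM in rABS, and rose 1.73-fold (log2 0.79 ± 0.07, adjusted p = 1.24e-10). All shCtrl libraries were above all rABS libraries and far below the Parental ones given above. YARS1 rose 1.45-fold, with 96.1, 95.0 and 103 CPM in shCtrl and 66.5, 67.5 and 68.4 CPM in rABS. MARS1 rose 1.33-fold, GARS1 1.29-fold, SARS1 1.147-fold and AARS1 1.13-fold. In rABS against Parental, a comparison that shares the rABS libraries, these 6 genes had log2 fold changes between -2.41 and -1.55.

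FARSA fell 1.53-fold, with 57.4, 66.6 and 61.1 CPM in shCtrl and 94.0, 107 and 83.8 CPM in rABS (log2 -0.62 ± 0.09, adjusted p = 1.87e-06). HARS1 fell 1.35-fold, with 33.75, 35.1 and 33.45 CPM in shCtrl and 46.3, 45.4 and 46.4 CPM in rABS. FARSB fell 1.21-fold and VARS1 1.185-fold. Among mitochondrial genes AARS2 fell 1.45-fold, with 24.4, 27.2 and 24.4 CPM in shCtrl and 36.8, 36.8 and 37.0 CPM in rABS. FARS2 fell 1.40-fold, LARS2 1.36-fold, CARS2 1.29-fold, VARS2 1.21-fold and EARS2 1.165-fold. The EARS2 call was lost without rABS replicate 2 or 3 or without shCtrl replicate 2 or 3, with adjusted p between 0.0527 and 0.0884.

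The third comparison asked what the APE1 hairpin did in the survivors. Most synthetases did not pass the test. Of the 19 cytosolic genes, 6 were lower in shAPE1 than in shCtrl, 2 were higher and 11 did not pass. Of the 16 mitochondrial genes, 1 was lower, 4 were higher and 11 did not pass. Over all genes tested, 18.8% were called lower and 17.8% higher. The cytosolic share that was lower (31.6%) and the mitochondrial share that was higher (4 of 16) were above these, on few genes. Without shCtrl replicate 1 the cytosolic count that was lower was 4 of 19 rather than 6. The mitochondrial count that was higher stayed at 4 with each library left out in turn. The medians were -0.13 for the cytosolic and 0.07 for the mitochondrial class, against -0.02 over all genes. The cytosolic median was -0.0689 without shCtrl replicate 1, and the mitochondrial one was 0.0199 without shAPE1 replicate 2.

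CARS1 was again the cytosolic gene with the largest change. It had 53.8, 52.4 and 56.2 CPM in shAPE1, against 79.0, 79.6 and 80.9 CPM in shCtrl, and fell 1.475-fold (log2 -0.56 ± 0.07, adjusted p = 5.8e-08). MARS1 had 84.2, 86.3 and 81.6 CPM in shAPE1, against 116, 120.4 and 119.9 CPM in shCtrl, and fell 1.41-fold. AARS1 had 98.4, 105 and 108 CPM in shAPE1, against 143, 143 and 144 CPM in shCtrl, and fell 1.38-fold. In these 3 genes the groups did not overlap. TARS1 fell 1.25-fold and NARS1 1.14-fold (adjusted p = 0.0453). WARS1 fell, with a log2 fold change of -0.20 ± 0.07, but its shAPE1 libraries, at 79.5, 94.1 and 81.45 CPM, overlapped the shCtrl libraries at 98.9, 93.5 and 101 CPM. The WARS1 call (adjusted p = 0.0264) was lost with 2 other scalings, with a fit of the 6 libraries alone and without shCtrl replicate 1 or 3 or shAPE1 replicate 1 or 3, with adjusted p between 0.0533 and 0.144.

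VARS1 rose, with 621, 750.4 and 639 CPM in shAPE1, against 447, 473 and 476 CPM in shCtrl (1.44-fold, log2 0.53 ± 0.07, adjusted p = 5.42e-07). QARS1 rose 1.21-fold, with 190.5, 219 and 185.5 CPM in shAPE1 and 156, 167 and 169.8 CPM in shCtrl. Both had no overlap between the groups, and each had its highest value in shAPE1 replicate 2. Of the mitochondrial genes, LARS2 rose 1.35-fold, with 23.05, 23.2 and 24.9 CPM in shAPE1 and 18.65, 16.6 and 17.7 CPM in shCtrl. FARS2 had 16.1, 16.9 and 15.4 CPM in shAPE1, against 11.0, 12.2 and 13.4 CPM in shCtrl, a 1.325-fold rise. LARS2 and FARS2 in shAPE1 were thereby close to their rABS levels given above. VARS2 rose 1.28-fold, with 36.1, 41.6 and 32.8 CPM in shAPE1 and 26.8, 29.8 and 29.5 CPM in shCtrl. EARS2 rose 1.22-fold, with 90.6, 95.3 and 90.3 CPM in shAPE1 and 80.0, 73.3 and 72.6 CPM in shCtrl. In all 4 of these genes the lowest shAPE1 library was above the highest shCtrl library. EARS2 and VARS2 in shAPE1 also lay near their rABS means, given further on. The genes that serve both compartments did not pass, GARS1 with an adjusted p of 0.147 and KARS1 with 0.817, and neither did EPRS1 or PARS2.

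WARS2, the mitochondrial tryptophanyl enzyme gene (chr1:119031216-119140671), had the largest change of any synthetase in this comparison. It had 6.08, 5.96 and 6.69 CPM in shAPE1, against 19.3, 16.5 and 17.3 CPM in shCtrl, which rests on 106 to 121 counts per shAPE1 library. The groups were far apart, and WARS2 was 2.83-fold lower (log2 -1.50 ± 0.12, adjusted p = 1.3e-11). The rABS libraries, at 15.9, 19.3 and 19.2 CPM, overlapped those of shCtrl, and the Parental libraries were higher, at 22.7, 23.4 and 24.2 CPM. Between shCtrl and rABS it did not pass (log2 -0.04 ± 0.11, adjusted p = 0.817). With WARS1 changing far less, the difference in log2 CPM between WARS1 and WARS2 was 3.69, 3.96 and 3.585 in shAPE1, against 2.35, 2.499 and 2.54 in shCtrl.

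**Figure D5:**
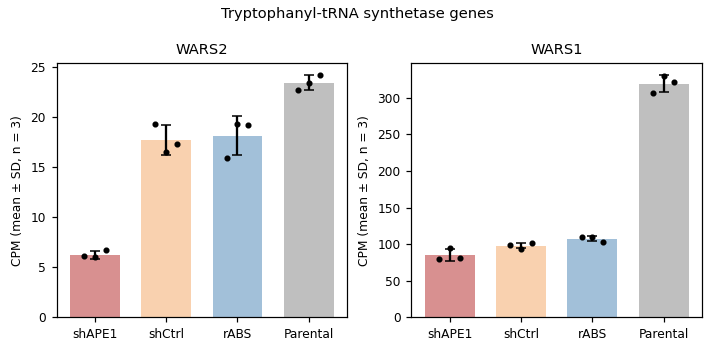
CPM of the mitochondrial gene WARS2 (left) and the cytosolic gene WARS1 (right), with bars at the mean, error bars at the standard deviation and a point for each of the 3 libraries of a group. WARS2 lies at 5.96 to 6.69 in shAPE1 and at 16.5 to 19.3 in shCtrl, whereas WARS1 is highest in Parental cells.

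A hairpin can lower other transcripts through short matches to its seed in their 3' untranslated regions. In an earlier search of these same fold changes, carriers of TGCATTC and of the overlapping letters GCATTCT and CTGCATT were low in shAPE1, so these letters are no independent support for any gene here. They were looked up in the longest GENCODE 29 3' untranslated region of the 34 synthetases that had one of at least 50 bases. A match was present in 6 genes (EARS2, FARSB, IARS2, LARS1, PARS2 and WARS2), which is 17.6% of them, against 29.1% of 12471 genes searched. WARS2 was the synthetase with TGCATTC, at 2 places, and EARS2 is shown beside it as a carrier of GCATTCT that rose. The sequences are written 5′ to 3′ on the strand of the gene, minus in both, with the match in capitals.
WARS2 upstream site (chr1:119032849-119032875): ttgcactccaTGCATTCtgataacggc
WARS2 downstream site (chr1:119032196-119032222): agtgctttctTGCATTCatttcagttt
EARS2 site (chr16:23524128-23524154): ctctggaaagGCATTCTccgggtctgg
At least 2 copies of TGCATTC were found in 295 genes (2.37%), of which 167 were lower in shAPE1 than in shCtrl, 18 were higher, and the median log2 fold change was -0.36. At WARS2's fold change or lower were 10 of these 295 genes. Of the 10813 genes without TGCATTC, 2053 were lower, 2452 were higher and 67 were as low as WARS2, with a median of 0.0083. The other 5 synthetases with a match comprised EARS2, which rose, and 4 that did not pass. The hairpin sequence was not used here, and the part of such matches in the WARS2 result was not tested.

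The comparisons of rABS with Parental and of shAPE1 with shCtrl share no library, so their calls can be set side by side. Of all genes tested, 18.8% were lower and 17.8% higher in shAPE1 than in shCtrl. Among the 4725 genes lower in rABS, 18.1% were lower and 26.5% higher in shAPE1, and among the 4729 genes higher in rABS, 28.3% were lower and 17% higher. Of the 13 cytosolic genes lower in rABS, 6 were also lower in shAPE1, 1 was higher (QARS1) and 6 did not pass. Of those also lower, AARS1, CARS1 and MARS1 had been higher in shCtrl than in rABS. Their mean CPM in shAPE1 and rABS was 103.7 and 127 for AARS1, 54.1 and 46.2 for CARS1, and 84.0 and 89.1 for MARS1. The others also lower, NARS1, TARS1 and WARS1, had not passed between shCtrl and rABS. Of the 5 cytosolic genes higher in rABS, 1 was higher in shAPE1 (VARS1) and 4 did not pass. VARS1 had been lower in shCtrl than in rABS, and its mean was 670 CPM in shAPE1 and 551.5 CPM in rABS. Of the 8 mitochondrial genes higher in rABS, 4 were higher in shAPE1 (EARS2, FARS2, LARS2 and VARS2) and 4 did not pass. All 4 that were higher had been lower in shCtrl than in rABS. Mean CPM in shAPE1 and rABS was 92.1 and 87.7 for EARS2 and 16.2 and 17.05 for FARS2. For LARS2 it was 23.7 and 23.9, and for VARS2 36.85 and 34.7. The shAPE1 group was not tested against rABS, so a move beyond rABS was not assessed. The comparisons of shCtrl with rABS and of shAPE1 with shCtrl share the shCtrl libraries, with opposite sign. A shift in shCtrl alone would give opposite calls in them, so such a pair of calls is not independent support for any gene. Of the 3 mitochondrial genes lower in rABS, WARS2 was lower in shAPE1 and the other 2 did not pass. Of the 7 cytosolic genes with the promoter element, 5 were lower in shAPE1 and 2 did not pass, with a median log2 fold change of -0.32. Of the 9 without it, 1 was lower, 1 was higher and 7 did not pass, with a median of -0.05. Pair by pair, the cytosolic minus mitochondrial difference was lower in every shAPE1 library than in any shCtrl library for 10 of 17 pairs, higher for 3 and overlapping for 4, with a median change of -0.24. Of the single genes tested, 24.3% were lower in every shAPE1 library than in any shCtrl library and 22.6% were higher. No such share was computed for pairs of genes. The pairs are not independent, as FARS2, higher in shAPE1, entered the lower pairs of both FARSA and FARSB, neither of which passed.

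The accompanying lists were counted in shAPE1 against shCtrl beside the same background of 18.8% lower and 17.8% higher, and a share near it is no result about a list. Of the 22 ATF4 and stress-response genes tested, 11 were lower in shAPE1, 4 were higher and 7 did not pass, with a median log2 fold change of -0.20. ATF4 had 125, 132 and 129.6 CPM in shAPE1, against 198, 215.5 and 201 CPM in shCtrl, a 1.59-fold fall. PHGDH, which encodes the first enzyme of serine synthesis, fell 3.61-fold, and ASNS 2.23-fold. Among the 4 that were higher, ATF5 rose 1.43-fold. NUPR1 rose most (log2 2.78), but from low levels, with means of 1.25 CPM in shAPE1 and 0.18 CPM in shCtrl. In shCtrl against rABS, 11 of these 22 genes were higher and 3 lower, against 17.9% and 18.6% of all genes tested. ATF4 was 1.65-fold higher there. Its mean was 129 CPM in shAPE1 and 123.8 CPM in rABS. ASNS had 38.0 and 21.8 CPM in these groups, and PHGDH 4.71 and 9.04 CPM. No test set shAPE1 against rABS. The shCtrl libraries served in both comparisons of this list, so opposite calls in them are not independent. In shAPE1 against shCtrl, EIF2S1, the alpha subunit of eIF2, fell 1.66-fold and EIF2S2 1.405-fold. Of the 14 eIF2alpha kinase and initiation genes, 2 rose and 10 did not pass. The scaffold genes AIMP1 and EEF1E1 fell 1.24- and 1.40-fold, whereas AIMP2 did not pass. Cytosolic delivery and handling had 1 gene higher, 3 lower and 8 not called. Of these, VBP1 was among the 3 that were lower (log2 -0.27, adjusted p = 0.0384), and EEF1G, with its uninformative count, was among the 8. Mitochondrial amidation, formylation and elongation had 2 genes higher, 1 lower and 10 not called. Of the 25 mitochondrial ribosomal protein genes listed, 3 were higher, 6 were lower and 16 did not pass.

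Survivors with the control hairpin can also be set against untreated cells, with the caution that this comparison shares its libraries with those above. Of the 19 cytosolic genes, 13 were lower in shCtrl than in Parental, 4 were higher and 2 did not pass, with a median log2 fold change of -0.80. Of the 16 mitochondrial genes, 3 were lower, 5 were higher and 8 did not pass, with a median of 0.16. Over all genes tested, 26.1% were called lower and 27.0% higher. The mitochondrial median ranged from 0.0679 without Parental replicate 2 to 0.233 without Parental replicate 3, and was 0.0865 without Parental replicate 1 and 0.0812 without shCtrl replicate 3. SARS1 was lowest relative to Parental, at 94.5, 84.8 and 97.2 CPM in shCtrl and 389, 387 and 414.5 CPM in Parental (4.31-fold). FARSA, at 57.4, 66.6 and 61.1 CPM in shCtrl, was above Parental (1.74-fold), and EARS2 was 2.33-fold higher.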

How the data were processed

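The deposited values were raw counts per Ensembl gene for 12 polyadenylated RNA libraries. Per the submitters' processing notes, the authors used Trimmomatic 0.36, STAR 2.5.2b, featureCounts of Subread 1.5.2 and GRCh38. Not given in the sources used here were the annotation release, the strand setting and how multi-mapping reads were treated. Symbols, positions, exon lengths and exon overlaps were taken from GENCODE 29, which placed 56898 of 57500 identifiers; 35464 genes had a count. Genes were kept with filterByExpr (minimum count 10, minimum total 15), scaled with TMM and fitted across all 12 libraries with a term per group (robust quasi-likelihood, edgeR 4.0.16, limma 3.58.1, R 4.3.3), with Benjamini-Hochberg adjustment over 15805 genes. CPM used scaled library sizes and log2 CPM a prior count of 2. Marker sums used unscaled totals. The procedure was tested on simulated data.

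The members and lists were chosen with earlier results of these data known, so no p is given for a list. Cytosolic genes named with values were the 8 with the largest called change in rABS against Parental and 4 in the other comparisons, mitochondrial genes 6 and 4, with GARS1, KARS1, QARS1, EPRS1, EARS2, PARS2, WARS1 and WARS2 added, and up to 4 genes per list. Genes beyond these were named to complete counts, after their values were seen. Replicate numbers did not pair the libraries (correlations of deviations -0.167 to 0.0673). Alternatives were RLE and upper-quartile scaling, DESeq2 1.42.0, limma-voom, 2 other filters, the 6 libraries alone, a replicate block and leaving out each library. Leaving out genes that share exons, or GARS1 and KARS1, was chosen after seeing the data.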

Additional observations from a re-analysis of the deposited data

How the results depend on the processing

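No called value changed sign in the alternatives run, while KARS1 in shAPE1 against shCtrl and WARS2 in shCtrl against rABS, which did not pass, lay on both sides of 0. Of the alternatives for the genes named in rABS against Parental, shAPE1 against shCtrl, shCtrl against Parental and shCtrl against rABS, 265 of 266, 203 of 210, 196 of 196 and 219 of 224 kept their side of the threshold. The exceptions were WARS1, EARS2 and KARS1, given in the report, and PARS2, which passed in shCtrl against rABS with the 6 libraries alone (adjusted p = 0.039). Without the synthetases that share over 10% of their exon bases, the cytosolic median was -0.584 in rABS against Parental and -0.514 in shCtrl against Parental, and the mitochondrial median 0.554 in rABS against Parental and -0.191 in shCtrl against rABS. Leaving out single libraries gave cytosolic medians of -0.764 to -0.709 in rABS against Parental, -0.155 to -0.0689 in shAPE1 against shCtrl and -0.831 to -0.76 in shCtrl against Parental. Mitochondrial medians ran from 0.24 to 0.464 in rABS against Parental, 0.0679 to 0.233 in shCtrl against Parental and -0.231 to -0.187 in shCtrl against rABS, where 0 to 1 mitochondrial genes were higher. With a replicate block, 9266 genes were called in rABS against Parental, 5485 in shAPE1 against shCtrl and 5457 in shCtrl against rABS. In that fit 5 cytosolic genes were lower in shAPE1 and 5 were higher in shCtrl than in rABS, where the fit without it had 6 each. Low counts limit SARS2, PARS2 and the shAPE1 level of WARS2.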
